A study of Mus musculus with 20 samples.

Results

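Nuclear receptors switch genes on or off by recruiting coregulators. The corepressor NCoR1 works as a scaffold: it holds the histone deacetylase HDAC3, the WD40-repeat proteins TBL1X and TBL1XR1 and the small subunit GPS2. On the other side stand the p160 coactivators, encoded by Ncoa1, Ncoa2 and Ncoa3, which bind receptors that carry an activating ligand and bring in histone acetyltransferases. Nrip1 encodes RIP140, a corepressor that also binds receptors with ligand and is known in muscle for restraining oxidative genes. Sirt1 encodes an NAD-dependent deacetylase known to deacetylate the coactivator PGC-1alpha. These 9 genes were taken by name: Hdac3, Tbl1x, Tbl1xr1, Gps2, Nrip1, Ncoa1, Ncoa2, Ncoa3 and Sirt1. All 9 were measured, among 19938 genes tested. Ncor1 was not analysed here.

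The samples were gastrocnemius muscles, from the calf, of adult male C57BL/6 mice, on 20 Affymetrix gene arrays in 4 groups of 5. NCoR1-MKO mice lack NCoR1 in muscle and were set against CON mice, called controls in the labels with no genotype stated. PGC-1alpha-mTg mice carry a muscle-specific PGC-1alpha transgene and were set against wild type (WT) mice. The Cre line and the transgene's promoter are not given in the sources used here, and the labels do not say whether each array held RNA of a separate animal. The p-values therefore rest on the variation among these arrays alone, part of which may be technical. Expression was given as RMA values in log2 units, so that 1 unit is a doubling.

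The quantiles of the arrays nearly matched within CON with NCoR1-MKO and within WT with PGC-1alpha-mTg, but not between these 2 cohorts, which appear to have been normalized separately. Levels are therefore given and tested within a cohort, and the cohorts meet only where the effects of the models, each against its own controls, are compared. Ppargc1a, the gene of the transgene, was 1.83 ± 0.07 (SE, n = 5 per group) higher in PGC-1alpha-mTg on the log2 scale (limma adjusted p = 9.88e-15), with no overlap of the groups. The knockout label was not checked, since Ncor1 was not analysed. The 12 skeletal muscle marker genes averaged between 12.4 and 13.2 on every array, near the top of the scale. A gene is said to have risen or fallen only where the limma adjusted p over all 19938 genes was under 0.05.

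In muscle with extra PGC-1alpha, the messages of 3 of the 4 NCoR1 complex partners fell: Tbl1xr1 to 0.688 of the WT level, Tbl1x to 0.872 and Hdac3 to 0.871. Of the p160 coactivators, Ncoa2 fell to 0.851 of the WT level, while Ncoa1 and Ncoa3 did not pass the test. None of the 9 rose, and Gps2, Nrip1 and Sirt1 were not called. These 4 calls among 9 genes stand beside 28 percent of all genes called (16.1 percent lower) and 45.6 percent of the brightest 60 percent of genes (27.7 percent lower). In muscle without NCoR1 none of the 9 passed the test, where 2.63 percent of all genes did. Nrip1 had the largest difference there, 0.666 of the CON level, with a wide spread between the knockout arrays. The plot of values by array shows every measurement.

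**Figure D1:**
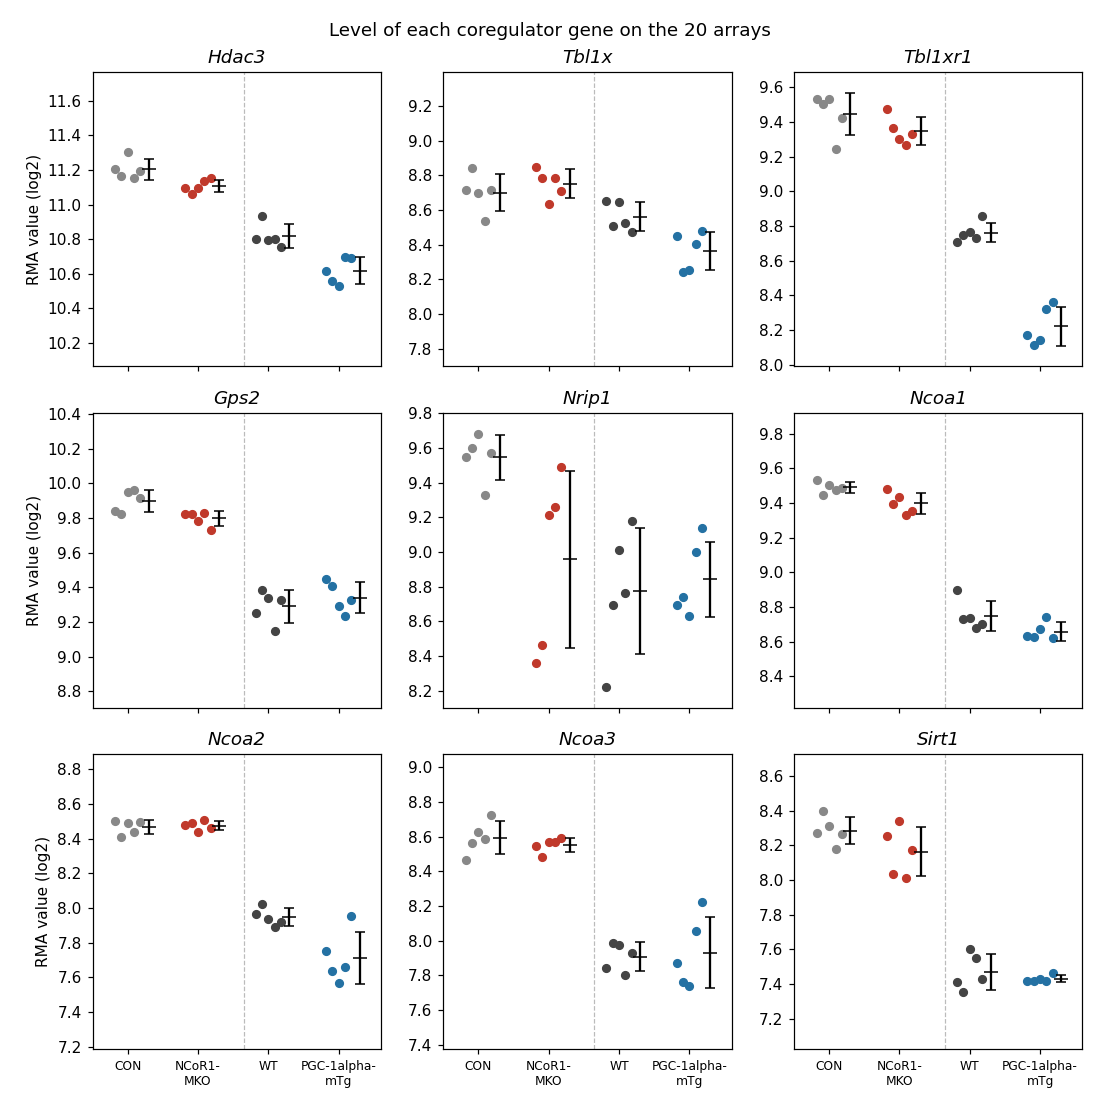
Each panel plots the RMA value on the log2 scale of 1 gene for each of the 20 arrays, with the mean and SD (n = 5) beside each group; every panel spans the same log2 range, and the dashed line separates the cohorts. Tbl1xr1 in PGC-1alpha-mTg lies wholly below WT, and Nrip1 has the widest spread, from 8.36 to 9.49 in NCoR1-MKO.

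Markers of other cell types also shifted in these samples. In PGC-1alpha-mTg against WT, 6 of 8 endothelial markers rose and none fell, with array means from 8.41 to 8.65 in WT and 8.79 to 8.96 in PGC-1alpha-mTg. Of 6 smooth muscle and pericyte markers 2 rose, with means from 8.16 to 8.32 and 8.35 to 8.48. Of 6 fibroblast markers 2 fell, with means from 9.17 to 9.47 and 9.02 to 9.22. Of 6 adipocyte markers 1 rose, Fabp4, while Adipoq, Plin1, Cidec, Lep and Retn were not called. Of the 12 fibre markers 4 fell (Myh7, Tnni2, Actn3 and Pygm) and 2 rose (Mb and Myh1), with means from 12.56 to 12.63 in WT and 12.43 to 12.53 in PGC-1alpha-mTg. The endothelial, smooth muscle and fibre means of these groups did not overlap, and no macrophage, nerve or blood marker was called. Of the 12 fibre markers Myh7 changed most, by -0.96 ± 0.30 (SE), and the fibre mean without it was not taken. Beside these counts, 11.9 percent of all genes rose and 16.1 percent fell in this comparison. Of the brightest 60 percent of genes, 17.9 percent rose and 27.7 percent fell. In NCoR1-MKO against CON 1 of 8 endothelial markers rose (Cdh5), with means from 8.64 to 8.87 in CON and 8.86 to 9.27 in NCoR1-MKO. No other marker was called there, where 1.31 percent of all genes rose and 1.32 percent fell. In whole muscle, fewer cells of a type and less RNA per cell cannot be told apart, and the part of these markers in the members' values was not tested.

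Tbl1xr1 encodes the WD40 protein TBLR1, which helps to exchange corepressors for coactivators on receptors. Its 5 WT arrays read 8.71, 8.75, 8.76, 8.73 and 8.86, and its 5 PGC-1alpha-mTg arrays 8.17, 8.11, 8.14, 8.32 and 8.36. Every transgenic array lay below every WT array. The change was -0.54 ± 0.06 (SE), with a 95% confidence interval from -0.66 to -0.42 and a limma adjusted p of 2.47e-07. A second, dimmer probe set of the gene gave -0.60 ± 0.09 (adjusted p = 2.31e-05 over all probe sets with 1 symbol). In size this change stood above that of 96.5 percent of all genes in this comparison. In the knockout cohort Tbl1xr1 read 9.53, 9.50, 9.53, 9.25 and 9.42 in CON and 9.47, 9.37, 9.30, 9.27 and 9.33 in NCoR1-MKO. Those groups overlapped, and the difference was -0.10 ± 0.06 (95% confidence interval -0.22 to 0.03, limma adjusted p = 0.600).

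Tbl1x, the X-linked relative of Tbl1xr1, encodes the founding TBL1 protein of the complex. It read 8.65, 8.51, 8.65, 8.53 and 8.47 in WT and 8.45, 8.24, 8.25, 8.41 and 8.48 in PGC-1alpha-mTg. All but 1 of the transgenic arrays lay below the lowest WT array. The change was -0.20 ± 0.06 (95% confidence interval -0.32 to -0.07, limma adjusted p = 0.0168). It no longer passed the test without WT 1, WT 3, PGC-1alpha-mTg 2 or PGC-1alpha-mTg 3, with limma adjusted p up to 0.0572, and 3 members were then called in place of 4. In the knockout cohort the CON arrays ran from 8.54 to 8.84 and the NCoR1-MKO arrays from 8.64 to 8.85, a difference of 0.05 ± 0.06 (limma adjusted p = 0.870). Whether the probes of Tbl1x and Tbl1xr1, which encode similar proteins, also bind each other's transcripts was not tested.

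Because this pair fell together, the sequence around the start of each gene is shown, from 250 bases before to 50 bases after it, from RefSeq on build GRCm38.p6. Tbl1xr1 lies on the plus strand at chr3:22076402-22076701 and Tbl1x on the plus strand at chrX:77510977-77511276. Capitals mark matches on either strand to the MAZ site GGGAGGG or the GC box GGGCGG, which may overlap each other. This pair and the MAZ site were chosen after the values and the sequences were seen.
Tbl1xr1: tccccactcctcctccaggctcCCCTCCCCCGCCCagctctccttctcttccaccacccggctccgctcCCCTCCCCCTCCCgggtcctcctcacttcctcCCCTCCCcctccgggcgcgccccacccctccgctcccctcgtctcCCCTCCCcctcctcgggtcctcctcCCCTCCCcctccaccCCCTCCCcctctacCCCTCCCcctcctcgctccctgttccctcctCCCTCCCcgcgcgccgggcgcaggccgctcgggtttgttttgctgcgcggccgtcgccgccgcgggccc
Tbl1x: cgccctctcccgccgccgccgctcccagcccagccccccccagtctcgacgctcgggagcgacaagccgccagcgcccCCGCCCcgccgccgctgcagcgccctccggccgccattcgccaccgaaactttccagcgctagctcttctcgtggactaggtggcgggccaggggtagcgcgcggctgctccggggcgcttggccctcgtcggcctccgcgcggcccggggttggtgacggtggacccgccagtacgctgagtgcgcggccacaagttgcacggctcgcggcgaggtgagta
The Tbl1xr1 window held 9 matches to GGGAGGG and 1 to GGGCGG, and that of Tbl1x held 0 and 1. Of 32851 RefSeq promoter windows of this length, 22 percent held GGGAGGG and 35.7 percent held GGGCGG. Windows were at hand for 6 of the 9 genes, with 2 alternative starts for Nrip1. None was at hand for Hdac3, Ncoa2 or Ncoa3, so Tbl1xr1 and Tbl1x are the only called members covered. Members that were not called held these motifs too. GGGAGGG occurred 3 times in 1 of the Nrip1 windows and 1 time in that of Sirt1. GGGCGG occurred 7 times each in those of Ncoa1 and Sirt1 and 2 times in the same Nrip1 window. Neither the nuclear receptor half-site AGGTCA (16.3 percent of all windows) nor the estrogen-related receptor element TCAAGGTCA (0.423 percent) occurred in any of these 7 windows, on either strand. The E-box CACGTG (7.15 percent of all windows) occurred 2 times in that of Sirt1 and in no other. The ETS site CCGGAAG (8.86 percent) occurred 1 time in that of Gps2. Such matches describe the letters in these windows and were not tested for binding.

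Hdac3, the deacetylase of the complex, read 10.80, 10.94, 10.79, 10.80 and 10.76 in WT and 10.62, 10.56, 10.53, 10.70 and 10.69 in PGC-1alpha-mTg. The groups did not overlap, as was the case in the lower direction for 11.2 percent of all genes. The change was -0.20 ± 0.05 (95% confidence interval -0.29 to -0.11, limma adjusted p = 0.00160). Hdac3 was also the member whose groups separated in the knockout cohort, where CON read 11.20, 11.16, 11.30, 11.15 and 11.20 and NCoR1-MKO 11.10, 11.06, 11.10, 11.14 and 11.15. Such separation in the lower direction was seen for 1.96 percent of all genes there, and the nearest arrays, CON 4 and NCoR1-MKO 5, differed only in the fourth decimal. The difference of -0.10 ± 0.05 did not pass the test (unadjusted p = 0.0463, limma adjusted p = 0.409).

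Gps2, the subunit that joins the TBL proteins to NCoR1, read 9.25, 9.39, 9.34, 9.15 and 9.33 in WT and 9.45, 9.41, 9.29, 9.23 and 9.32 in PGC-1alpha-mTg. These groups overlapped, with a difference of 0.05 ± 0.05 (95% confidence interval -0.05 to 0.16, limma adjusted p = 0.500). It was thus the 1 partner of the complex with a positive estimate in the transgenic mice. In the knockout cohort it read 9.84, 9.82, 9.95, 9.96 and 9.92 in CON and 9.82, 9.82, 9.78, 9.83 and 9.73 in NCoR1-MKO. There 4 of the 5 knockout arrays lay below the lowest control, and the difference was -0.10 ± 0.05 (95% confidence interval -0.21 to 0.003, limma adjusted p = 0.450).

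**Figure D2:**
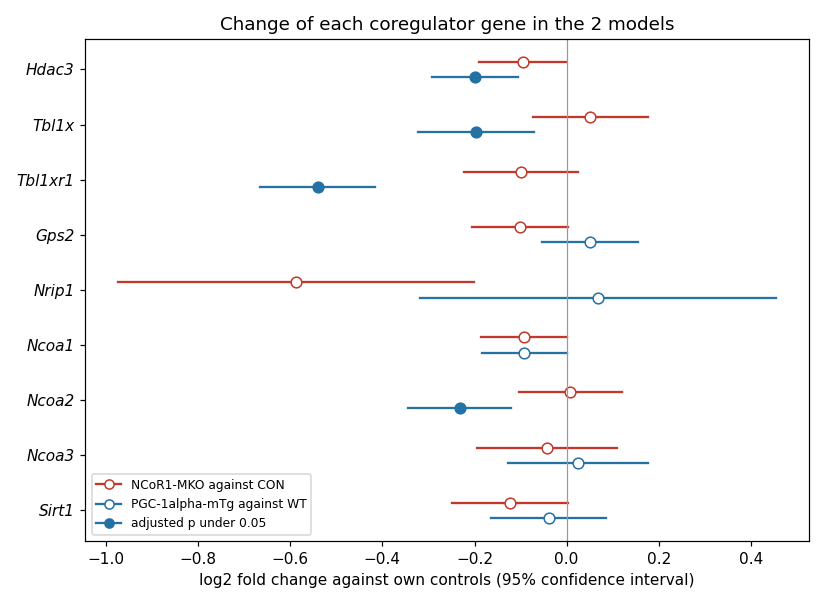
The points give the log2 fold change of each gene against its own controls, with its 95% confidence interval, in NCoR1-MKO (red) and PGC-1alpha-mTg (blue); filled points have a limma adjusted p under 0.05. The 4 filled points are Hdac3, Tbl1x, Tbl1xr1 and Ncoa2 in PGC-1alpha-mTg, and the widest intervals are those of Nrip1.

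Of the 3 p160 coactivators 1 was called in PGC-1alpha-mTg, and differences between these genes were not tested. Ncoa2, which encodes SRC-2 (TIF2, GRIP1), read 7.96, 8.02, 7.94, 7.89 and 7.92 in WT and 7.75, 7.64, 7.57, 7.66 and 7.95 in PGC-1alpha-mTg. PGC-1alpha-mTg 5 lay within the WT range and the other transgenic arrays lay below it. The change was -0.23 ± 0.05 (95% confidence interval -0.34 to -0.12, limma adjusted p = 0.00197), and it passed the test in all 20 fits with 1 array left out. In the knockout cohort Ncoa2 ran from 8.41 to 8.50 in CON and from 8.44 to 8.51 in NCoR1-MKO. That difference was 0.01 ± 0.05 (95% confidence interval -0.10 to 0.12), and its sign turned with each array centred on its median.

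Ncoa1, which encodes SRC-1, read 8.90, 8.73, 8.73, 8.68 and 8.70 in WT and 8.63, 8.62, 8.67, 8.74 and 8.62 in PGC-1alpha-mTg. Apart from PGC-1alpha-mTg 4 the transgenic arrays lay below all WT arrays, yet the difference of -0.09 ± 0.04 did not pass the test (95% confidence interval -0.18 to 0.002, limma adjusted p = 0.142). The knockout gave nearly the same estimate, -0.09 ± 0.04 (95% confidence interval -0.19 to 0.0009, limma adjusted p = 0.431), with CON at 9.53, 9.45, 9.51, 9.48 and 9.49 and NCoR1-MKO at 9.48, 9.39, 9.44, 9.33 and 9.35. There, too, 4 of 5 arrays of the model lay below the lowest control. Ncoa3, which encodes SRC-3, read 7.84, 7.99, 7.98, 7.80 and 7.93 in WT and 7.87, 7.76, 7.74, 8.06 and 8.23 in PGC-1alpha-mTg. Of the transgenic arrays, 2 lay below and 2 above the whole WT range, and the difference was 0.02 ± 0.07 (95% confidence interval -0.13 to 0.18, limma adjusted p = 0.854). In the knockout cohort Ncoa3 ran from 8.47 to 8.73 in CON and from 8.48 to 8.59 in NCoR1-MKO, a difference of -0.04 ± 0.07 (limma adjusted p = 0.934).

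Sirt1 read 7.41, 7.35, 7.60, 7.55 and 7.43 in WT and 7.41, 7.42, 7.43, 7.42 and 7.47 in PGC-1alpha-mTg. All 5 of the latter lay inside the WT range, and the difference was -0.04 ± 0.06 (95% confidence interval -0.16 to 0.09, limma adjusted p = 0.693). In the knockout cohort Sirt1 read 8.27, 8.40, 8.31, 8.18 and 8.27 in CON and 8.25, 8.04, 8.34, 8.01 and 8.17 in NCoR1-MKO. The difference was -0.12 ± 0.06 (95% confidence interval -0.25 to 0.002, limma adjusted p = 0.443), with 3 of 5 knockout arrays below the lowest control.

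Nrip1 varied more between arrays of a group than any other of these genes. Its SD within groups was 0.338, above that of 99.6 percent of all genes, against 0.0614 to 0.123 for the other members. In CON it read 9.55, 9.60, 9.68, 9.33 and 9.57, and in NCoR1-MKO 8.36, 8.46, 9.22, 9.26 and 9.49. NCoR1-MKO 1 and 2 were far below CON, NCoR1-MKO 3 and 4 somewhat below, and NCoR1-MKO 5 within the CON range. The difference of -0.59 ± 0.19 (95% confidence interval -0.97 to -0.20) had an unadjusted p of 0.00467 and a limma adjusted p of 0.111. It passed the test without NCoR1-MKO 5 (-0.72, limma adjusted p = 0.0348), in which fit 1 member was called, and in no other fit run. In the other cohort Nrip1 read 8.22, 8.69, 9.01, 8.76 and 9.18 in WT and 8.70, 8.74, 8.63, 8.999 and 9.14 in PGC-1alpha-mTg. All 5 of the latter lay within the WT range, and the difference of 0.07 ± 0.19 (95% confidence interval -0.32 to 0.45, limma adjusted p = 0.836) turned negative without WT 1 or PGC-1alpha-mTg 5.

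The arrays low in Nrip1 were also low in the clock gene Per2 and high in Clock and Nr1d1. After the group means were subtracted, Nrip1 correlated with Per2, a repressor of the circadian clock, at r = 0.90 (rho = 0.93) over the 20 arrays. With Clock, which encodes an activator of the clock, r was -0.94 (rho = -0.94), and with Nr1d1, which encodes the heme-binding repressor REV-ERBalpha, it was -0.85 (rho = -0.87). Both cohorts showed this: r with Per2 was 0.95 in CON with NCoR1-MKO and 0.86 in WT with PGC-1alpha-mTg, and r with Clock was -0.95 and -0.91. Without NCoR1-MKO 1 and WT 1, the arrays farthest from the median of Nrip1, r was 0.90 for Per2, -0.92 for Clock and -0.83 for Nr1d1. The values come from the same arrays and share any effect of the array or of the time of sampling, which the labels do not give. The genes were picked after this pattern was seen, so no p is given.

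Of 17 core clock genes in a list written after that, 16 were measured. Beside Per2, Clock and Nr1d1, which had prompted the list, Per1 (0.78), Nfil3 (0.75), Arntl (-0.83) and Bhlhe40 (-0.84) had an r beyond 0.7 in size with Nrip1. Of all genes 1.16 percent had an r beyond 0.7 in size. The r of Nr1d2, the relative of Nr1d1, had the opposite sign to that of Nr1d1, at 0.61. Without the 2 farthest arrays the r of Per1 was 0.63. At the other end stood the clock output gene Dbp (0.08, or -0.11 without those arrays) and the clock repressor gene Ciart (-0.10, or -0.41). In NCoR1-MKO against CON, Nr1d1 rose by 0.98 ± 0.23 (limma adjusted p = 0.0198), and Per2 stood at -0.47 ± 0.15 (limma adjusted p = 0.126). Per2 read 7.54, 7.93, 8.42, 8.63 and 8.70 in NCoR1-MKO, while its CON arrays ran from 8.67 to 8.76. The knockout arrays with the lowest Nrip1 were thus those with the lowest Per2, and the part of this in the Nrip1 difference was not tested. In NCoR1-MKO 1 to 5 Nr1d1 read 12.93, 12.78, 12.40, 12.11 and 11.72. It thus fell with replicate number there, while Nrip1 and Per2 rose. In WT and PGC-1alpha-mTg replicate 5 also had the lowest Nr1d1 and the highest Nrip1, but CON showed no such order. What the replicate numbers stand for is not given, and their part in these differences was not tested.

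**Figure D3:**
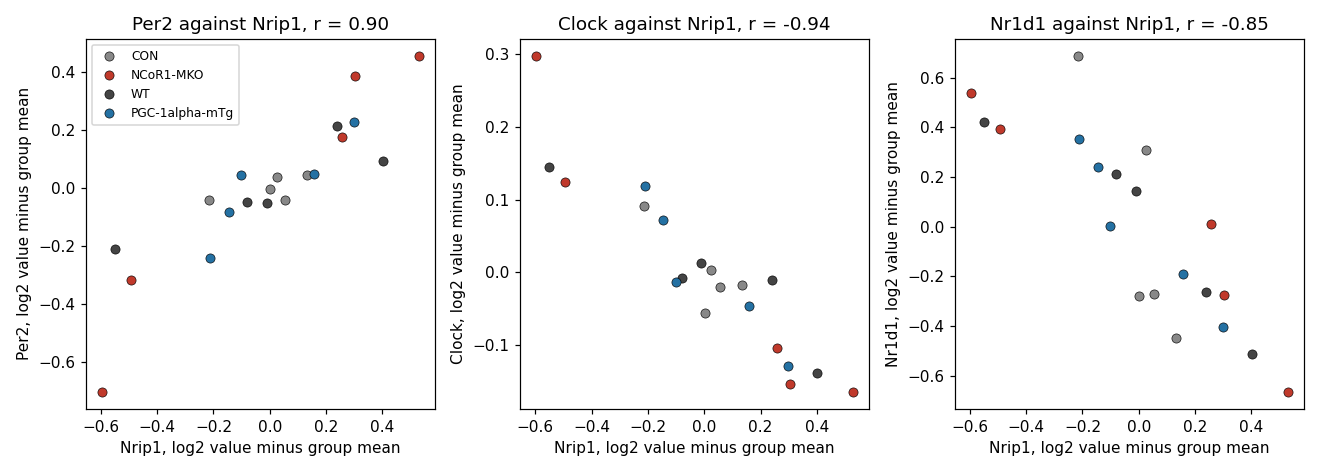
Each point is 1 of 20 arrays, coloured by group; the x axis gives Nrip1 and the y axes Per2, Clock and Nr1d1, each as the log2 value minus the mean of its group. Per2 goes up with Nrip1 (r = 0.90), and Clock (r = -0.94) and Nr1d1 (r = -0.85) go down.

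Over all 19938 genes the highest r with Nrip1 were those of Cep85l (0.96), the metalloproteinase inhibitor gene Timp4 (0.91) and the alcohol dehydrogenase gene Adh1 (0.91). The lowest was that of Kdr, the VEGF receptor of endothelial cells, at -0.94. The mean of the 8 endothelial markers, Kdr among them, had an r of -0.73 with Nrip1. Several members, called and not called, were lower within groups where the mean of the 4 measured nerve and Schwann cell markers was higher. That r was -0.77 for Ncoa2, -0.75 for Tbl1x, -0.59 for Tbl1xr1 and -0.56 for Hdac3, and -0.61 for Ncoa3, which was not called. The nerve means were low and overlapped between models and controls, from 5.09 to 5.29 in WT and 4.93 to 5.26 in PGC-1alpha-mTg. They lay below the medians of the arrays of that cohort, 5.84 to 5.91. Hdac3 had an r of 0.60 with the mean of the macrophage markers and Ncoa1 of 0.53 with that of the endothelial markers. The r with marker means given here are the largest in size over all members and marker lists. The share of all genes with such an r was not counted. These are descriptions over 20 arrays, and the part of the markers in them was not tested.

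Within groups the 9 members varied together to different degrees. Of their 36 pairs, 25 had a positive r over the 20 arrays, with a median of 0.17. The share of positive r among pairs of other genes was not counted. Some pairs changed sign between cohorts. In CON with NCoR1-MKO, Tbl1xr1 had an r of -0.27 with Ncoa3 and -0.25 with Nrip1. In WT with PGC-1alpha-mTg these were 0.88 and 0.76. The highest was Ncoa2 with Ncoa3 at 0.69, which was 0.80 in WT with PGC-1alpha-mTg and 0.01 in CON with NCoR1-MKO. Hdac3 had an r of 0.64 with Ncoa3 and 0.59 with Ncoa2, and Tbl1x of 0.57 with Tbl1xr1. PGC-1alpha-mTg 4 and 5 were the highest transgenic arrays for Hdac3, Tbl1xr1, Ncoa3 and Nrip1. The lowest r was that of Nrip1 with Ncoa1, -0.53, with like values in both cohorts (-0.55 and -0.56).

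**Figure D4:**
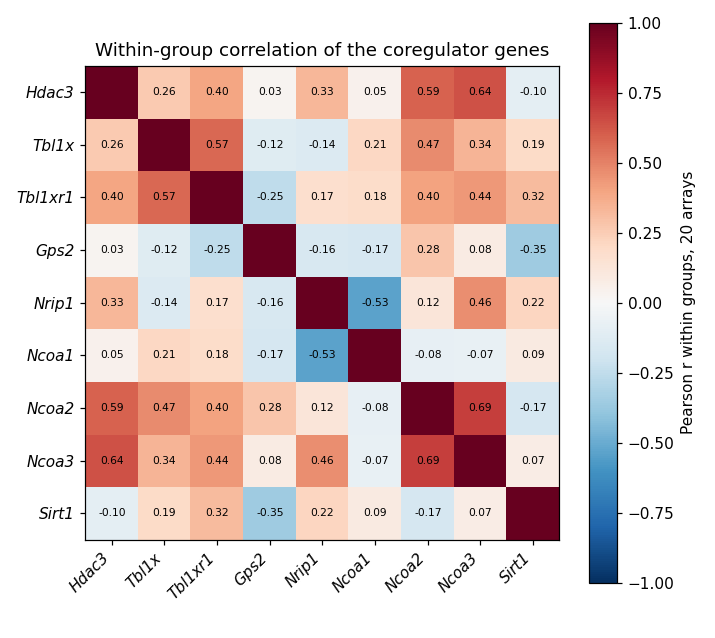
The grid gives Pearson's r between each pair of the 9 genes over 20 arrays, after subtracting the mean of each group; red is positive and blue negative. Ncoa2 with Ncoa3 (0.69) is the highest pair and Nrip1 with Ncoa1 (-0.53) the lowest.

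Read against the background, the count of calls in the transgenic mice does not set these genes apart. In PGC-1alpha-mTg against WT 4 of the 9 fell and none rose, or 44.4 percent. Of all genes tested, 28 percent were called in either direction, 16.1 percent fell and 11.9 percent rose. All 9 members, however, were among the brighter genes, with mean levels above those of 72.3 percent or more of all genes. Of the brightest 60 percent of genes, fitted alone, 45.6 percent were called, 27.7 percent fell and 17.9 percent rose. The median change of the members was -0.09, that of all genes 0.02. In NCoR1-MKO against CON none of the 9 was called by limma, nor without its moderation of the variances. Hdac3 and Nrip1 had an unadjusted p under 0.05, and the share of all genes at that threshold was not counted. Of all genes 2.63 percent were called there (1.31 percent higher, 1.32 percent lower), and of the brightest 60 percent 5.52 percent. The members' median was -0.10, with 7 of 9 negative. That of all genes was 0.001, with 49.3 percent of them negative.

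The models were compared by the difference of their effects, each taken against its own controls. For Tbl1xr1 the transgenic effect was lower than the knockout effect by -0.44 ± 0.08 (95% confidence interval -0.62 to -0.27, limma adjusted p = 0.000707), and this passed whichever array was left out. For Ncoa2 the difference was -0.24 ± 0.08 (95% confidence interval -0.40 to -0.08, limma adjusted p = 0.0350), but it missed the threshold in 11 of 20 fits with 1 array left out (adjusted p up to 0.0730). Those were the fits without CON 2 or 4, NCoR1-MKO 1, 2 or 4, WT 1, 2 or 3 or PGC-1alpha-mTg 2, 3 or 4. Without CON 2, NCoR1-MKO 3, WT 5 or PGC-1alpha-mTg 1 or 5 the difference for Tbl1x, -0.25 ± 0.09 (limma adjusted p = 0.0534), passed. So did that for Nrip1, 0.65 ± 0.26 (limma adjusted p = 0.105), without NCoR1-MKO 5. Of all genes 15.2 percent had a called difference, and of the 9 members 2 did, with 1 to 3 when 1 array was left out. For Ncoa1 the difference was 0.0006 ± 0.06, with a 95% confidence interval from -0.13 to 0.13.

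Genes near these in function were examined as lists. The lists were chosen with earlier results of these data known, so their shares are descriptions. Among 30 other corepressors and their deacetylases, 11 fell and 2 rose in PGC-1alpha-mTg, at a median of -0.08 (all genes 0.02). That is 43.3 percent called, near the 45.6 percent of the brightest 60 percent of genes. Sap30, a subunit of the Sin3 deacetylase complex, fell by 0.65 ± 0.07. The class IIa deacetylase gene Hdac9 changed by -0.41 ± 0.08, the ligand-dependent corepressor gene Lcor by -0.35 ± 0.08 and Spen, which encodes a transcriptional corepressor, by -0.27 ± 0.06. In NCoR1-MKO 1 of the 30 was called, or 3.33 percent, where 2.63 percent of all genes were. That was Hr, a corepressor of thyroid hormone receptors, which rose by 0.39 ± 0.09 (limma adjusted p = 0.0259). None of the list was called without CON 1, 2 or 4 or NCoR1-MKO 3 or 4, and 2 were without NCoR1-MKO 5 or WT 1.

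Among 25 other coactivators 11 fell and 1 rose in PGC-1alpha-mTg (48 percent called, against 45.6 percent of the brightest genes), at a median of -0.15. The acetyltransferase gene Kat2b, which encodes PCAF, changed by -0.46 ± 0.05, the chromatin remodeller gene Smarca2 by -0.42 ± 0.06 and the arginine methyltransferase gene Carm1 by -0.32 ± 0.05. Crebbp, which encodes the acetyltransferase CBP recruited by p160 proteins, changed by -0.30 ± 0.05. In NCoR1-MKO 1 of 25 was called, or 4 percent, where 2.63 percent of all genes were. That was Ppargc1b, which rose by 0.51 ± 0.12 (limma adjusted p = 0.0193). None was called without CON 3 or NCoR1-MKO 3 or 4.

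Of 16 other sirtuins and NAD synthesis genes 7 rose, 2 fell and 7 were not called in PGC-1alpha-mTg, at a median of 0.09. That is 56.25 percent called, against 28 percent of all genes and 45.6 percent of the brightest 60 percent of genes. The smallest p-values were those of the mitochondrial deacetylase gene Sirt3 at 1.04 ± 0.06 (limma adjusted p = 2.61e-12) and the mitochondrial Sirt5 at 0.61 ± 0.06. The NAD-forming enzyme genes Nmnat3 and Nmnat1 rose by 0.44 ± 0.05 and 0.30 ± 0.05. In NCoR1-MKO 3 of 16 rose and none fell: Nmrk2 (0.80 ± 0.16), Nmnat1 (0.21 ± 0.05) and Sirt3 (0.21 ± 0.06). That is 18.75 percent called, against 2.63 percent of all genes and 5.52 percent of the brightest 60 percent. Since this list was chosen with earlier results of these data known, the share is a description and not a test. The list had 1 call without CON 4 or NCoR1-MKO 4. Of the 32 nuclear receptors measured, 7 rose and 9 fell in PGC-1alpha-mTg, at a median of 0.02. That is 50 percent called, against the same 28 and 45.6 percent. Esrrb (1.35 ± 0.08) and Esrra (0.66 ± 0.05), which encode estrogen-related receptors, were the foremost rises, and Rora (-0.57 ± 0.05) and Rxrg (-0.45 ± 0.06) the foremost falls. In NCoR1-MKO Nr1d1 rose and Rora fell (-0.23 ± 0.05, limma adjusted p = 0.0118), or 6.25 percent of the receptors called. There 1 receptor gene was called without CON 1, 2 or 3 or NCoR1-MKO 1 or 2, and 4 were without NCoR1-MKO 5.

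**Figure D5:**
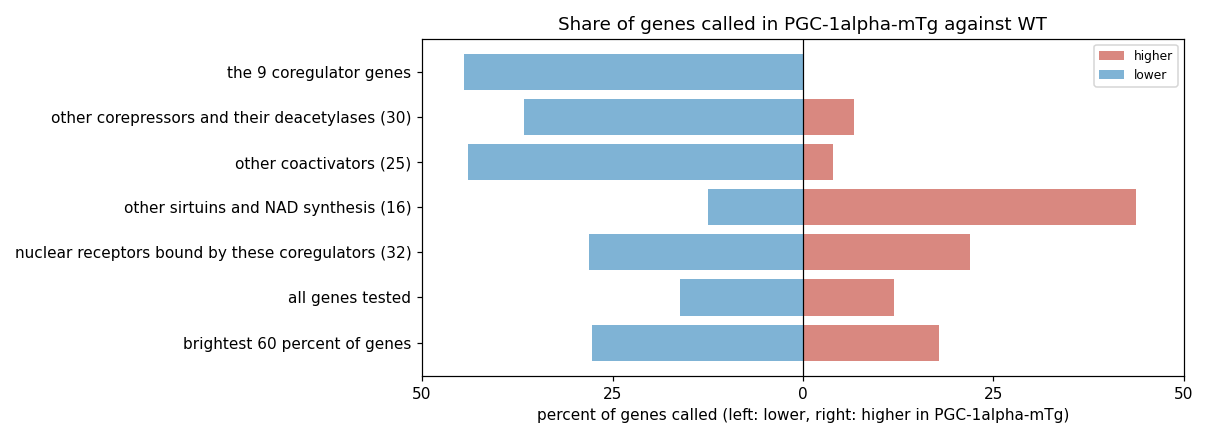
The bars give the percent of each set of genes called higher (right, red) or lower (left, blue) in PGC-1alpha-mTg against WT at a limma adjusted p under 0.05, with the number measured in brackets. The sirtuin and NAD list has 7 of 16 higher and 2 lower. Every other set has more genes called lower than higher, as have all genes and the brightest 60 percent in the bottom bars.

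For each called member, the genes most like it over the 20 arrays were taken by Pearson's r after subtracting the mean of each cohort's controls. These r hold the fall in the transgenic mice as well as the spread within groups. For Tbl1xr1 they were Kif5b, which encodes a kinesin heavy chain (r = 0.97, and -0.53 in PGC-1alpha-mTg), and Ascc3 (r = 0.97, and -0.29). For Tbl1x they were Bms1 (0.94) and Ttbk2 (0.93), for Hdac3 Spire1 (0.93) and Fem1b (0.92), and for Ncoa2 Fundc1 (0.95) and Vps53 (0.95). All 8 of these genes fell in PGC-1alpha-mTg, and none was called in NCoR1-MKO, a pattern that this way of choosing them favours.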

How the data were processed

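The authors deposited log2 values; RMA and Partek, without versions, are the tools listed in the submitters' processing notes. RMA sets arrays to common quantiles, so changes shared by most genes are removed. Mean quantile differences were at most 0.0630 within a cohort and 0.169 to 0.228 between cohorts. Gene symbols came from the array platform's annotation, in which 21789 of 35556 probe sets had 1 symbol. The brightest per gene was used, which left 19938 genes. A linear model of the 4 group means was fitted over the 20 arrays (limma 3.58.1, R 4.3.3), with Benjamini-Hochberg adjustment over all genes. The fit was tested on simulated data. An array has no depth; 5 arrays per group limit the precision. Members and lists were chosen with earlier results of these data known. Related genes are named by rule: up to 4 called per list and comparison by smallest p, and the 2 genes most like each called member. The clock genes, the genes nearest Nrip1 and the share among the brightest genes were added after the data were seen. Alternatives were other scalings, probe set rules, variance models, a replicate block and each array left out.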

Additional observations from a re-analysis of the deposited data

Results flagged for a closer look

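On 3 occasions a single array stood apart from the other 4 of its group. Hdac3 read 10.94 on WT 2, where the next WT array read 10.80. Ncoa1 read 8.90 on WT 1, where the next read 8.73. Sirt1 read 7.47 on PGC-1alpha-mTg 5, where the next read 7.43 and the whole group was narrow. Among 40 groups examined (these 9 genes and Ppargc1a), chance alone flags about 1 in 20. The effects of the models differed for Tbl1xr1 by -0.44 and for Ncoa2 by -0.24, transgenic minus knockout.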

How the results depend on the processing

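In PGC-1alpha-mTg against WT the 4 falls kept their direction and call under all alternatives that kept all 20 arrays or the 10 of the comparison, and 3 to 4 were called with 1 array left out. The counts of calls over all genes stayed within 1.5 times, from 370 to 685 for the knockout and from 4868 to 6544 for the transgenic mice. In NCoR1-MKO against CON no member was called under these alternatives, and 0 to 1 with 1 array left out. Small counts there moved. Without moderation 0 other corepressors, 0 other coactivators and 1 receptor were called. With the replicate block the counts were 2 corepressors, 1 sirtuin or NAD gene and 1 receptor, and 1 member had a called difference between the models, since Ncoa2 missed the threshold (adjusted p = 0.0708). With 1 array left out, the counts in the knockout were 0 to 2 corepressors, 0 to 1 coactivators, 1 to 3 sirtuin or NAD genes and 1 to 4 receptors, and 1 to 3 members had a called difference. Same-numbered arrays did not deviate together (r over 0.1 in 3 of 10 pairs, best match its own number in 2), so the numbers were not taken as pairs. The Tbl1x difference passed with the 20 arrays quantile-normalized together (adjusted p = 0.0420), without the dimmest genes (0.0346) and with trend and robust (0.0429). Changes near 0 turned sign: with arrays centred on their median Ncoa2 stood at -0.0016 in the knockout and the Ncoa1 difference at -0.0053. With 1 array left out they ran from -0.0055 to 0.018 for Ncoa2 in the knockout, -0.070 to 0.17 for Nrip1 and -0.050 to 0.072 for Ncoa3 in the transgenic mice, and -0.021 to 0.038 for the Ncoa1 and -0.0078 to 0.11 for the Ncoa3 difference. The causes were not tested.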

Other observations

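Tbl1xr1 and Tbl1x changed unequally. The log2 value of Tbl1xr1 minus that of Tbl1x on the same array was 0.20 ± 0.12 (SD, n = 5) in WT, from 0.057 to 0.38, and -0.14 ± 0.07 in PGC-1alpha-mTg, from -0.27 to -0.084, so these groups did not overlap. In the other cohort it was 0.75 ± 0.08 in CON, from 0.663 to 0.835, and 0.60 ± 0.07 in NCoR1-MKO, from 0.485 to 0.667. The 2 probe sets differ in brightness per molecule, so only the shift between groups can be read, not the sign of a value. This was chosen after the values were seen, and no test was made.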
